A study of Mus musculus with 2 samples.

Results

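The 10 Polycomb genes described here were measured in mouse erythroleukemia (MEL) cells: 4 genes of Polycomb repressive complex 2 (Ezh2, Ezh1, Eed and Suz12) and 6 of Polycomb repressive complex 1 (Rnf2, Ring1, Bmi1, Cbx2, Cbx7 and Cbx8). They were chosen by symbol, each matched 1 gene identifier, and they are 10 of the 69691 rows of the gene table and 9 of the 8003 protein-coding genes that reached a level of 1 TPM, a measure scaled to gene length and to the library's total, in both libraries. MEL is an immortalized mouse leukemia line whose cells are arrested as red cell precursors and start to make hemoglobin when given dimethyl sulfoxide (DMSO). The series held 2 total RNA libraries of 1 condition, cells kept for 5 days in 2% DMSO. The labels call the libraries biological replicate 2 and biological replicate 1, here replicate 2 and replicate 1. Replicate 2 had 90856320 estimated counts and replicate 1 had 65109488. Since the labels name a single biosample for the pair of libraries, some of the spread may be technical. Untreated MEL cells were not analysed here, so every comparison is between genes in the treated cells or between the 2 libraries, and each p-value compares the reads of those libraries and not conditions.

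Polycomb complexes keep genes silent through histone marks. Complex 2 methylates lysine 27 of histone H3 through its catalytic subunit, either Ezh2 or the related Ezh1, held together by Eed and Suz12. Complex 1 attaches ubiquitin to histone H2A through Rnf2 or Ring1, paired with a Pcgf protein such as Bmi1, and in its canonical form a Cbx protein reads the methyl mark. In human red cell precursors, EZH2 is known to give way to EZH1 as the cells mature, which is why the balance of the 2 enzymes in an induced erythroid line is of interest.

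The treated cells had the RNA of the red cell lineage. All 9 erythroid markers reached 1 TPM in both libraries, among them Gata1, the erythroid master transcription factor, at 64.3 TPM in replicate 2 and 57.4 TPM in replicate 1. None of 7 granulocyte and macrophage, 3 mast cell, 4 lymphoid or 4 stromal and epithelial markers did so, while 3 of 4 megakaryocyte markers did. The 4 added up to 45.2 TPM in replicate 2, against 47.5 in replicate 1, but moved apart, with Itga2b past the 2-fold rule (log2 ratio of replicate 2 over replicate 1 of 1.12) and Gp5 at -0.57 and Pf4 at -0.20. Their part in the results was not tested. The libraries were unequal in the markers of maturation. Over 9 erythroid markers the summed TPM was 13672 in replicate 2 and 6546 in replicate 1. Of the 9, 6 passed the 2-fold rule with higher counts in replicate 2, namely the 4 globin genes, Alas2 and Slc4a1. That rule, 2-fold or more with an exact binomial adjusted p under 0.05, called 2.42% of all genes tested higher in replicate 2. The 4 cell cycle genes were high in both, with summed TPM of 207 in replicate 2 and 197 in replicate 1, but they also moved apart. On scaled counts the log2 ratio of replicate 2 over replicate 1 was 0.57 for Top2a, 0.54 for Mki67, 0.10 for Pcna and -0.16 for Mcm2. Protein-coding genes held 12.9% of the TPM in replicate 2 and 13.5% in replicate 1, so each TPM below is a share of a total held mostly by other RNA.

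The sequences upstream of the 2 catalytic genes and of Suz12, the member with the highest level, are shown because the text sets their levels against each other. They are the longest stretch of the 250 bases before the RefSeq start (build GRCm38.p6) that lies outside annotated exons, written 5′ to 3′ on the gene's own strand. Capitals mark exact matches of 3 words, on this strand or, as the reverse complement, on the other. In Ezh2 both capital runs are the CCAAT word, in Ezh1 the run is the CCACCC word, and in Suz12 the first run is an E2F word spelled TTTCCCGC and the second run the CCAAT word. The Ezh2 stretch lies at chr6:47595059-47595183 on the minus strand, 153 to 29 bases before the start, the Ezh1 stretch at chr11:101226464-101226713 on the minus strand, and the Suz12 stretch at chr11:79992856-79993105 on the plus strand.
Ezh2: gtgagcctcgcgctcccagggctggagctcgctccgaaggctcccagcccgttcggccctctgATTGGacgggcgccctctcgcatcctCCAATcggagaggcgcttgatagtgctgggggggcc
Ezh1: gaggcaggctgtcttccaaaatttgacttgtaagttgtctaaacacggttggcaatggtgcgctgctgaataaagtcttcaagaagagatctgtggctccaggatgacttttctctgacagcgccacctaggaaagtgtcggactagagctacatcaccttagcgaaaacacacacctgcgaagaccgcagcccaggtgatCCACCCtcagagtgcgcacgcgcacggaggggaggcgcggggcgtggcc
Suz12: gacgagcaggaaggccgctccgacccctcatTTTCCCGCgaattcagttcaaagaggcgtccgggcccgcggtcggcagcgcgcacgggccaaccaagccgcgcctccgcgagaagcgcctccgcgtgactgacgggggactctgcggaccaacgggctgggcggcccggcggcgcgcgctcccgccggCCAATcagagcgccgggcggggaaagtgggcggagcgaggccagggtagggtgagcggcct

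The RefSeq promoter table held 9 of the 10 genes, all but Cbx2. In the full 250 bases, the Ezh2 window had the CCAAT word, a core promoter element bound by NF-Y, 3 times, at bases 90 to 86, 64 to 60 and 11 to 7 before the start, whereas the Ezh1 window had it at no position. The CCACCC word, of the kind bound by erythroid Krüppel-like factors, was in both windows once, at bases 207 to 202 in Ezh2 and at bases 49 to 44 in Ezh1. Annotated exons covered 125 bases of the Ezh2 window, among them its CCACCC word and its CCAAT word at bases 11 to 7. They covered 0 bases of the Ezh1 window. The Suz12 window held 1 CCAAT word and, at bases 219 to 212, the only E2F word among the members. Both strands were searched. Besides these words the search took TTTGGCGC as a second spelling of the E2F word, and for GATA factors it took the spelling AGATAA and also the spelling TGATAA. No match overlapped another in the windows. The CCAAT word was in 4 of the 9 windows and in 33.9% of all 32841 promoters of the table, the CCACCC word in 5 of 9 and 28.1%, an E2F word in 1 of 9 and 1.30%, and a GATA word in 0 of 9 and 16.6%. The member windows had a median GC content of 66.4% and 22 CpG, against 52.4% and 6 CpG over all promoters of the table. These are exact matches of letters and do not show that a factor binds.

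The mean level of the 10 genes ranged from 0.865 TPM for Cbx7 to 8.29 TPM for Suz12. In order of mean TPM they were Suz12, Bmi1, Ezh2, Eed, Rnf2, Cbx2, Ezh1, Ring1, Cbx8 and Cbx7. The 2 libraries' values of neighbours in that order overlapped for Ezh2 and Eed, Eed and Rnf2, Cbx2 and Ezh1, and Ezh1 and Ring1, so the order within those pairs is not fixed by these libraries. They did not overlap for Suz12 and Bmi1, Bmi1 and Ezh2, Rnf2 and Cbx2, Ring1 and Cbx8, or Cbx8 and Cbx7. The median member had 3.11 TPM in replicate 2 and 3.995 TPM in replicate 1, and over all 8003 expressed protein-coding genes the median was 3.99 TPM in replicate 2 and 4.84 TPM in replicate 1. A level of 1 TPM in both libraries was reached by 9 of the 10 genes, all but Cbx7, and by all 10 with the authors' posterior mean TPM or with TPM rescaled to protein-coding genes.

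**Figure D1:**
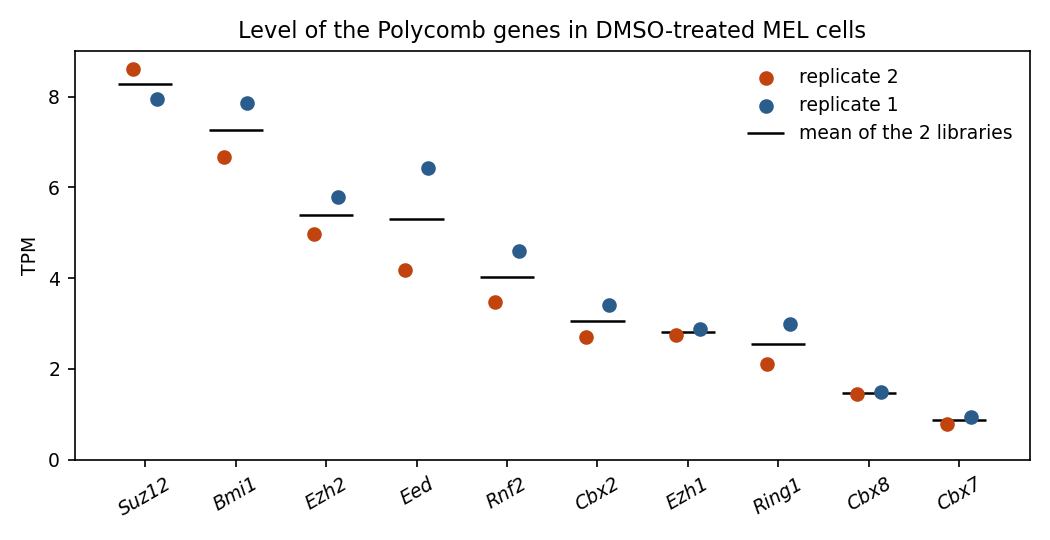
TPM of the 10 Polycomb genes (vertical axis) in replicate 2 and replicate 1, ordered by the mean of the 2 libraries, which the bars show. Suz12 had the highest level in both libraries and Cbx7 the lowest, below 1 TPM in both.

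Ezh2, the main methyltransferase of dividing cells (ENSMUSG00000029687, chromosome 6, 47530139 to 47595341, GRCm38), had 4.98 TPM in replicate 2 and 5.79 TPM in replicate 1, a mean of 5.39 ± 0.573 TPM (SD, n = 2). Ezh1, the alternative methyltransferase that is typical of resting and mature cells (ENSMUSG00000006920, chromosome 11, 101191115 to 101226463), had 2.74 TPM in replicate 2 and 2.87 TPM in replicate 1, a mean of 2.81 ± 0.0919 TPM. The treated cells thus held RNA of both enzymes, with Ezh2 higher than Ezh1 in each library and no overlap. Ezh2 exceeded 59.2% of expressed protein-coding genes in replicate 2 and 57.3% in replicate 1, while Ezh1 exceeded 34.0% in replicate 2 and 27.8% in replicate 1.

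The ratio of Ezh2 to Ezh1 TPM was 1.82 in replicate 2 and 2.02 in replicate 1, a mean of 1.92 ± 0.141 (SD, n = 2). With protein-coding transcripts alone it was 1.90 ± 0.147. Ezh1 messages are longer than those of Ezh2, so the counts themselves were less far apart, with 4126 for Ezh2 and 3643 for Ezh1 in replicate 2, and 2772 for Ezh2 and 2109 for Ezh1 in replicate 1. The mean ratio of counts, not corrected for length, was 1.22. Both ways, the library with more globin RNA was the one with the lower ratio of Ezh2 to Ezh1, and whether the maturation of the cells plays a part was not tested.

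The genes nearest to Ezh2 in level, by Euclidean distance of log2 (TPM + 1) over the 2 libraries, were Nudt16l1, Ncbp3 and Myo5a, at distances of 0.0190 to 0.0248. Those nearest to Ezh1 were Alkbh4, Mkrn2 and Erbin, at 0.00386 to 0.00855. With 2 libraries such a match describes a like level and nothing else.

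Suz12, the scaffold without which complex 2 is unstable (ENSMUSG00000017548, chromosome 11, 79993106 to 80034123), was the highest member with 8.62 TPM in replicate 2 and 7.95 TPM in replicate 1, a mean of 8.29 ± 0.474 TPM (SD, n = 2). It exceeded 76.7% of expressed protein-coding genes in replicate 2 and 69.2% in replicate 1. Eed, which binds the methyl mark and stimulates the enzyme (ENSMUSG00000030619, chromosome 7, 89954654 to 89980983), had 4.18 TPM in replicate 2 and 6.43 TPM in replicate 1, a mean of 5.31 ± 1.59 TPM and the widest spread of the 10 genes. Although both proteins enter the complex together, the ratio of Suz12 to Eed TPM was 2.06 in replicate 2 and 1.24 in replicate 1. Counted over protein-coding transcripts alone the ratios were 2.92 in replicate 2 and 2.08 in replicate 1.

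The ubiquitin ligases of complex 1 were both present. Rnf2, also called Ring1b (ENSMUSG00000026484, chromosome 1, 151458004 to 151500955), had 3.48 TPM in replicate 2 and 4.59 TPM in replicate 1, a mean of 4.04 ± 0.785 TPM (SD, n = 2). Ring1, its paralog (ENSMUSG00000024325, chromosome 17, 34020792 to 34024680), had 2.10 TPM in replicate 2 and 2.98 TPM in replicate 1, a mean of 2.54 ± 0.622 TPM. Rnf2 was the higher of the pair in each library, and the ratio of Ring1 to Rnf2 TPM was 0.603 in replicate 2 and 0.649 in replicate 1. When protein-coding transcripts alone were counted, the ratio was 0.750 in replicate 2 and 0.967 in replicate 1, so that the RNAs able to encode the ligases were nearly level in replicate 1.

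Bmi1, also called Pcgf4, the Pcgf protein best known for sustaining the self-renewal of blood stem cells (ENSMUSG00000026739, chromosome 2, 18677018 to 18686629), had 6.68 TPM in replicate 2 and 7.87 TPM in replicate 1, a mean of 7.28 ± 0.841 TPM (SD, n = 2). It was the leading Pcgf gene, with 37.7% of the family's summed TPM in replicate 2 and 36.6% in replicate 1. The other five ranged on mean TPM from 11.4% ± 1.83 for Pcgf5 to 16.1% ± 0.235 for Pcgf6, with Pcgf1 at 11.4% ± 1.47, Pcgf2 at 11.8% ± 4.83 and Pcgf3 at 12.0% ± 0.938. Pcgf2, or Mel18, the closest relative of Bmi1, had the share that differed most between the libraries, with 8.42% in replicate 2 and 15.2% in replicate 1. With protein-coding transcripts alone these shares spread more widely, from 8.14% for Pcgf2 to 19.4% for Pcgf6.

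Among the Cbx readers, Cbx2 led the 3 members and Cbx7 was last. Cbx2, which also compacts chromatin (ENSMUSG00000025577, chromosome 11, 119022962 to 119031270), had 2.70 TPM in replicate 2 and 3.40 TPM in replicate 1, a mean of 3.05 ± 0.495 TPM (SD, n = 2). Its neighbour on the chromosome Cbx8 (ENSMUSG00000025578, 119036305 to 119040969) had 1.44 TPM in replicate 2 and 1.49 TPM in replicate 1, a mean of 1.47 ± 0.0354 TPM. Cbx7, a reader that prevails in mouse embryonic stem cells (ENSMUSG00000053411, chromosome 15, 79915807 to 79971119), had 0.79 TPM in replicate 2 and 0.94 TPM in replicate 1, a mean of 0.865 ± 0.106 TPM.

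Over the 3 members and Cbx6, the leading gene was not a member. Cbx6 held 55.1% ± 2.96 of the summed TPM of these 4 Polycomb Cbx genes, with 5.57 TPM in replicate 2 and 7.80 TPM in replicate 1. Cbx2 held 25.3% ± 0.544, Cbx8 12.3% ± 1.97 and Cbx7 7.21% ± 0.444 (SD, n = 2). The place of Cbx7 is the least certain of these, because the authors' posterior mean TPM put it at 15.9% in replicate 2 and 13.5% in replicate 1, with a mean of 1.93 TPM in place of 0.865. On that measure its share was above that of Cbx8, which had 12.5% in replicate 2 and 10.4% in replicate 1.

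**Figure D2:**
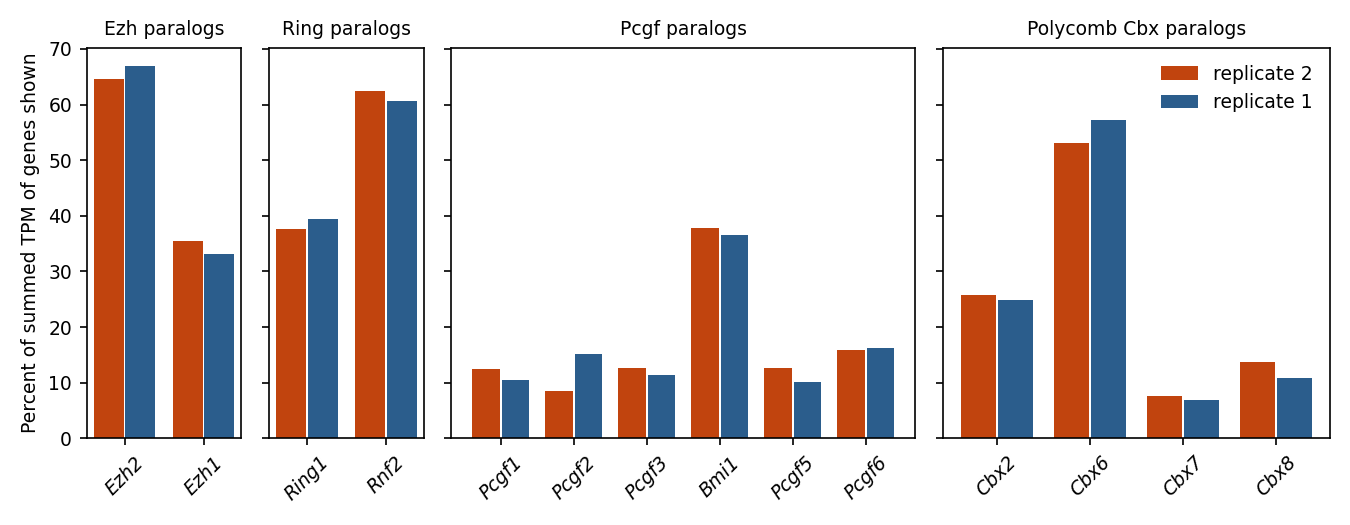
Percent of the summed TPM of the family members shown (vertical axis) held by each paralog in replicate 2 and replicate 1. Ezh2, Rnf2, Bmi1 and Cbx6 held the largest share of those shown in both libraries.

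The transcript tables divide each gene's TPM among annotated transcripts. The 10 genes had 60 transcripts, of which 32 were annotated as protein-coding and 11 had a TPM of 0 in both libraries. The median share of a member's TPM in protein-coding transcripts was 84.2% in replicate 2 and 77.1% in replicate 1. Over 5783 expressed protein-coding genes with several transcripts the medians were 89.3% in replicate 2 and 86.9% in replicate 1. The share was higher in replicate 2 for 10 of 10 members, as it was for 70.3% of those background genes whose share differed, and no test was made of this.

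Eed and Rnf2 had the lowest shares, and in each most of the rest lay in 1 short noncoding transcript. Eed had only 1 coding transcript, Eed-201, with 2.85 TPM in replicate 2 and 3.52 TPM in replicate 1. The rest of its TPM lay in Eed-202, a retained-intron transcript of 454 bases, with 31.7% of the gene's TPM in replicate 2 and 45.3% in replicate 1, yet 6.67% of its counts in replicate 2 and 11.5% in replicate 1. In Rnf2, the coding transcript Rnf2-201 had 2.23 TPM in replicate 2 and 2.25 TPM in replicate 1, and the noncoding Rnf2-202 of 570 bases had 1.11 TPM in replicate 2 and 2.11 TPM in replicate 1. On TPM the coding RNA of Rnf2 was thus nearly level between the libraries, and the difference in the gene's TPM lay in the short transcript. The median expressed gene was lower in replicate 2 on TPM, as given below, and the estimated counts of Rnf2-201 were 2676.7 in replicate 2 and 1632.5 in replicate 1. Bmi1-203, a noncoding transcript of 464 bases, likewise held 14.3% of the TPM of Bmi1 in replicate 2 and 24.5% in replicate 1, while the 2 coding transcripts Bmi1-202 and Bmi1-201 had 2.98 and 2.65 TPM in replicate 2, and 3.04 and 2.71 TPM in replicate 1. A short transcript gains TPM from few reads because TPM divides by length.

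Ezh2 was spread over several coding forms. Ezh2-201 held 32.4% of its TPM in replicate 2 and 27.6% in replicate 1, Ezh2-202 25.1% in replicate 2 and 25.9% in replicate 1, and Ezh2-203 11.9% in replicate 2 and 11.4% in replicate 1. Retained-intron transcripts held 17.5% of the TPM of Ezh2 in replicate 2 and 22.5% in replicate 1. For Ezh1 the leading transcript changed between the libraries. Ezh1-203 held 60.7% in replicate 2 and 31.6% in replicate 1, and Ezh1-202 held 14.0% in replicate 2 and 35.8% in replicate 1. These transcripts are close in length, at 4193 and 4207 bases, and the authors' posterior SD was 34.1% to 46.8% of their counts, so the tables do not resolve which of them leads.

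Cbx7 stood apart in the type of RNA. The retained-intron transcript Cbx7-207, of 6057 bases, took 34.9% of the gene's counts in replicate 2 and 43.1% in replicate 1, the largest noncoding share of counts among the 10 genes. Because that transcript is long, it held 13.6% of the TPM in replicate 2 and 20.2% in replicate 1. In contrast Suz12, Cbx2 and Cbx8 had at least 98.4% of their counts in coding transcripts in both libraries. The leading transcript was the same in both libraries for 8 of the 10 genes, the exceptions being Ezh1 and Cbx7.

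**Figure D3:**
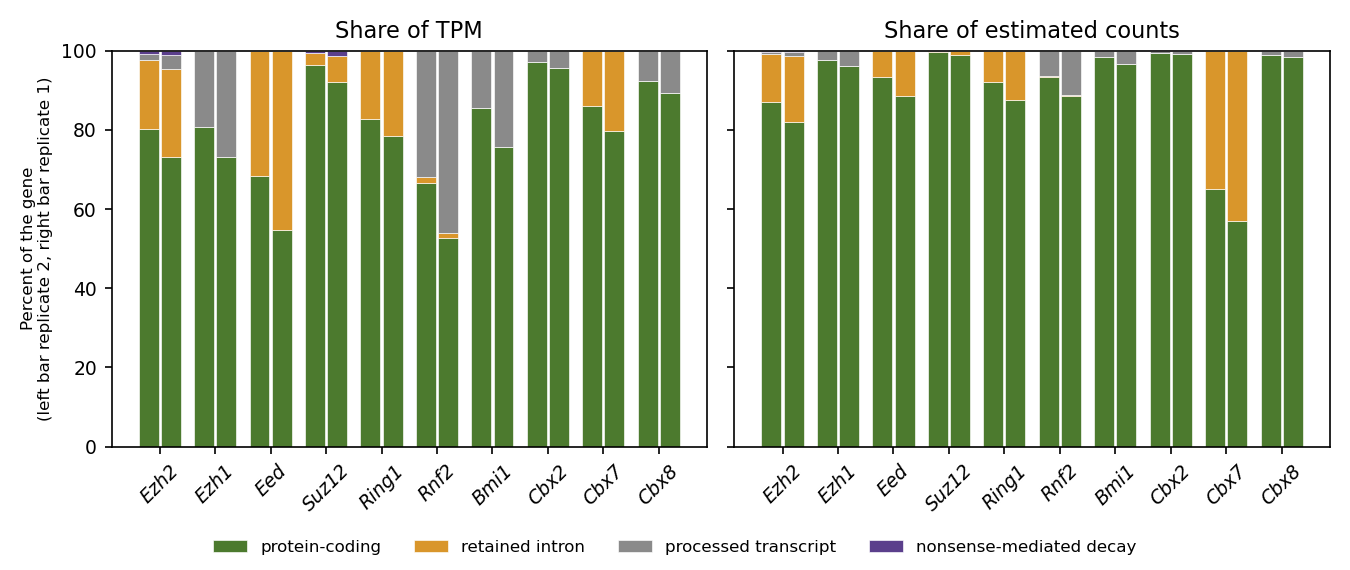
Percent of each gene's TPM (left) and of its estimated counts (right) in transcripts of each annotated class, with replicate 2 as the left bar and replicate 1 as the right bar of each pair. Eed and Rnf2 lost most to noncoding transcripts by TPM, and Cbx7 by counts.

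Genes whose spans overlap those of the members could share reads, since the sources used here do not state whether counting used the strand. Most partners were low, with Gm26625 at 11 and Gm26563 at 33 counts in replicate 2, and 14 and 36 counts in replicate 1, opposite Ezh2 and Suz12. E230029C05Rik, opposite Eed, had 101 counts in replicate 2 and 80 in replicate 1. Trmt1l overlaps the end of Rnf2 by 158 bases with 2526 counts in replicate 2 and 1758 in replicate 1, and Apobec3 overlaps Cbx7 by 100 bases with 901 counts in replicate 2 and 995 in replicate 1. The counts of Apobec3 exceeded those of Cbx7 in both libraries. Gm36527, within Rnf2 on its own strand, had 204 counts in replicate 2 and 179 in replicate 1.

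None of the 10 genes differed between the libraries by the rule of 2-fold or more with an adjusted p under 0.05, by an exact binomial test per gene on scaled estimated counts with Benjamini-Hochberg adjustment over 15275 genes. All 10 passed the filter of 10 or more counts in at least 1 library. Over all genes tested 6.49% were called, 2.42% with higher and 4.08% with lower counts in replicate 2, and when the libraries were scaled to their protein-coding counts the share of calls that were higher was 26.1% in place of 37.2%. At 1.5-fold, 16.1% of genes and 0 members were called. Without a fold threshold 9 of the 10 members passed, 6 higher and 3 lower in replicate 2, beside 62.0% of all genes, with 31.5% higher and 30.5% lower. Scaled to protein-coding counts, 4 members were higher and 4 lower, as the calls of Ezh2 and Rnf2 ended and Cbx2 was newly called as lower. The 62.0% of all genes is for the main scaling, and its counterpart under protein-coding scaling is not given. At an unadjusted p under 0.05, 9 members and 64.6% of genes passed. At this depth small differences pass a test that covers counting error alone, so the sizes of the ratios are given below.

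The member that was highest in replicate 2 relative to replicate 1 was Suz12, with 13997 counts in replicate 2 and 7479 in replicate 1, a log2 ratio of 0.45 (95% interval 0.41 to 0.50, exact binomial test, adjusted p = 9.4e-109). Ezh1 followed with a log2 ratio of 0.34 (0.26 to 0.42, exact adjusted p = 2.4e-17), and Ezh2 had 0.12 (0.05 to 0.19, exact adjusted p = 0.0010, but 0.58 when scaled to protein-coding counts). The intervals of the 2 catalytic genes did not overlap, so Ezh1 lay further toward replicate 2 than Ezh2 by more than the counting error. A common scaling factor does not alter this gap. The gap was not tested against the spread between the libraries, whose coefficient of variation over all genes tested was 0.216. Cbx8 had 0.28, Bmi1 0.22 and Rnf2 0.16.

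At the other end, Cbx7 had 729 counts in replicate 2 and 625 in replicate 1, a log2 ratio of -0.23 (-0.38 to -0.07, exact adjusted p = 0.0074). Ring1 had 1420 counts in replicate 2 and 1210 in replicate 1, a log2 ratio of -0.22 (-0.33 to -0.11, exact adjusted p = 2.5e-04). Eed had -0.10 (-0.19 to -0.01, exact adjusted p = 0.042), which DESeq2 size factors moved to an exact adjusted p of 0.053. Cbx2, at -0.03, did not pass. On counts, Suz12 thus had a positive and Eed a negative log2 ratio, and of the paired ligases Rnf2 had a positive and Ring1 a negative one. The intervals cover counting error only, and the coefficient of variation between the 2 libraries beyond that error, over all genes tested, was 0.216.

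The direction depended on the scale for 5 of the 10 genes. On TPM, 9 of 10 members were lower in replicate 2, as were 80.0% of the 8003 expressed protein-coding genes, whose median log2 ratio was -0.26 on TPM and 0.04 on scaled counts. Ezh1, Ezh2, Bmi1, Rnf2 and Cbx8 had a positive log2 ratio on counts and a negative one on TPM. Relative to the median gene on each scale, 5 members lay above it on both, namely Suz12, Ezh1, Cbx8, Bmi1 and Ezh2, and Eed, Ring1 and Cbx2 lay below it on both. Ezh1 was 0.29 above the median on counts and 0.19 above it on TPM, and Ezh2 was 0.08 above on counts and 0.04 above on TPM. The summed TPM of the erythroid markers was higher in replicate 2, while the members lay on both sides of the median. Whether the markers and these values go together cannot be told from 2 libraries and was not tested. In RNA from whole cultures, fewer cells of a type and less RNA per cell cannot be told apart.

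**Figure D4:**
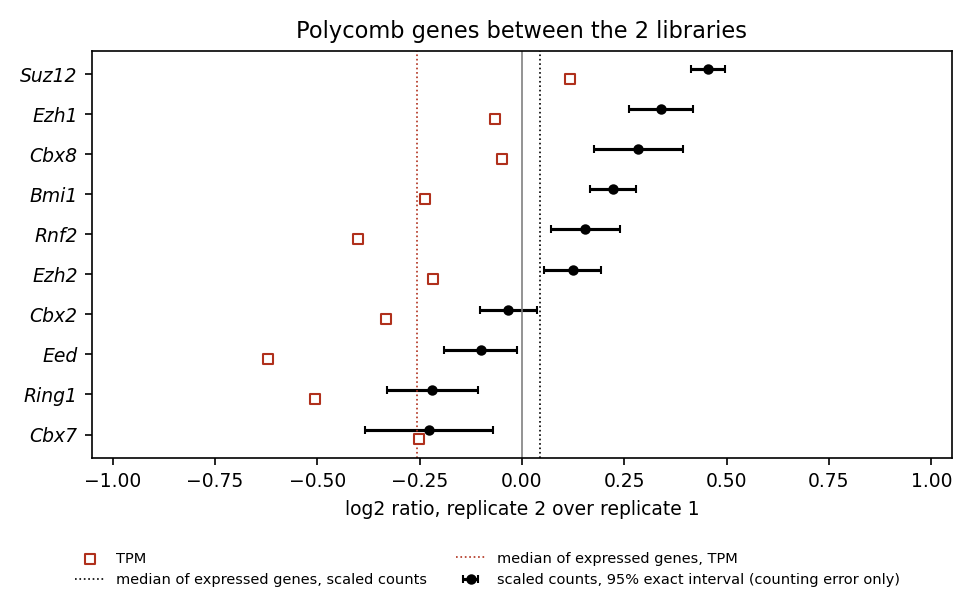
Log2 ratio of replicate 2 over replicate 1 (horizontal axis) for each gene, on TMM-scaled counts with 95% exact intervals that cover counting error alone (filled circles) and on TPM (open squares), with the medians of 8003 expressed protein-coding genes as dotted lines. All values lie within 2-fold, and Suz12 and Ezh1 lie above the median on both scales.

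The partners of complex 2 were also expressed. Of 9 listed accessory and partner genes 8 matched an identifier and 6 reached 1 TPM in both libraries. Rbbp7, a histone-binding subunit, was the highest with 27.2 TPM in replicate 2 and 34.2 TPM in replicate 1, and its paralog Rbbp4 had 7.33 TPM in replicate 2 and 7.15 TPM in replicate 1. Aebp2 and Jarid2, which mark one form of the complex, had 4.61 and 1.68 TPM in replicate 2, and 6.26 and 1.92 TPM in replicate 1. Epop, a partner best known from mouse embryonic stem cells, had 0 counts in replicate 2 and 4 in replicate 1. Of 7 genes tested, none passed the 2-fold rule, against 6.49% of all genes, while 4 were higher and 3 lower in replicate 2 without a fold threshold, against 62.0% of all genes, and 7 passed at an unadjusted p under 0.05, against 64.6% of all genes.

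Of 20 other subunit genes of complex 1, 15 reached 1 TPM in both libraries. The highest was Bcor, a corepressor of the noncanonical complex that contains Pcgf1, with 8.75 TPM in replicate 2 and 10.3 TPM in replicate 1. Rybp, a subunit that replaces Cbx proteins in noncanonical complexes, had 29 counts in replicate 2 and 25 counts in replicate 1, which is 0.02 TPM in each, whereas its paralog Yaf2 had 3.99 TPM in replicate 2 and 5.33 TPM in replicate 1. Among 18 genes tested, 1 passed the 2-fold rule, Scml4, on 46 counts in replicate 2 and 13 in replicate 1 (log2 ratio 1.33, exact binomial test, adjusted p = 0.0029). It was not tested when 100 counts were required. Over all genes 6.49% passed the same rule. Without a fold threshold 6 genes were higher and 9 lower in replicate 2, against 62.0% of all genes in either direction, with Pcgf2 the lowest at a log2 ratio of -0.59.

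Enzymes that undo the Polycomb marks, listed here with the Asxl genes, which do not encode enzymes, were present beside the members. Of 9 listed genes 8 reached 1 TPM in both libraries, led by Bap1, which removes ubiquitin from histone H2A, with 10.4 TPM in replicate 2 and 11.9 TPM in replicate 1. The demethylase gene Kdm6a had 2.88 TPM in replicate 2 and 2.69 TPM in replicate 1, close to Ezh1, and Kdm6b was the lowest of the 8 with 1.12 TPM in replicate 2 and 1.77 TPM in replicate 1. Among 8 genes tested none passed the 2-fold rule, against 6.49% of all genes. Without a fold threshold 6 were higher and 2 lower in replicate 2, against 62.0% of all genes, and 8 passed at an unadjusted p under 0.05, against 64.6%.

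Most genes that textbooks name as Polycomb targets in other mouse cells had few or no counts, as did most rows of the gene table. Of all 69691 rows, 22873 had a rounded count above 0 in at least 1 library and 15275 reached 10. The low counts of the targets are therefore not particular to them. Of 21474 protein-coding rows, 8003 reached 1 TPM in both libraries. Of 20 listed targets 10 had 0 counts in both libraries, among them Hoxa9, Hoxb8, Sox2 and Gata4, and 15 had under 10 counts in both. A count of 0 allows up to 3 counts, or 0.0330 CPM (counts scaled to the library's total) in replicate 2 and 0.0461 CPM in replicate 1. The other 5 had 10 or more counts, among which Pax6 had 554 counts in replicate 2 and 338 in replicate 1, Cdkn1c 525 in replicate 2 and 498 in replicate 1, and Hoxc8 143 in replicate 2 and 115 in replicate 1. The highest was Cdkn2a, the only target at 1 TPM in both libraries, which encodes the cell cycle inhibitors p16 and p19 and is a known target of Bmi1 in mouse cells, with 19.0 TPM in replicate 2 and 22.0 TPM in replicate 1. Its level was above that of every member. Its neighbour Cdkn2b had 0.66 TPM in replicate 2 and 1.04 TPM in replicate 1. Among 5 targets tested none passed the 2-fold rule, against 6.49% of all genes. Without a fold threshold 1 was higher and 2 lower in replicate 2, a share near the 62.0% of all genes, and 3 passed at an unadjusted p under 0.05, near the 64.6% of all genes. No histone mark was measured, so silence of a gene does not show that Polycomb acts on it.

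**Figure D5:**
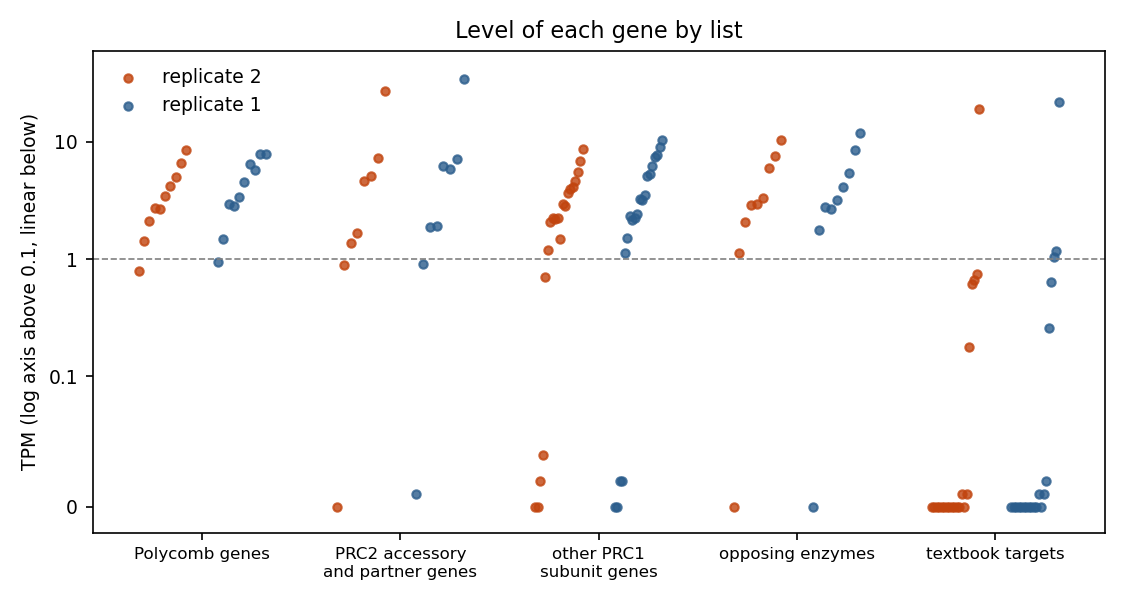
TPM of each gene (vertical axis, logarithmic above 0.1 and linear below) for the 10 Polycomb genes and the 4 lists, with replicate 2 left of replicate 1 and a dashed line at 1 TPM. Most subunits and most genes of the opposing enzymes list lie above the line. Of 20 textbook targets 1, Cdkn2a, lies above it in both libraries.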

How the data were processed

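Per the file headers, the authors' gene tables give an estimated count (expected count) for each gene, which need not be whole, beside TPM, FPKM and posterior means. In the deposited transcript tables each transcript also has its percent of the TPM of its gene. The readme in the deposit names mm10 as the genome and GENCODE M4 as the annotation. The sources used here name no aligner or quantification program. Fragments of 300 to 350 bases were selected, per the labels. Levels are TPM as deposited, which corrects for length, with the authors' FPKM as an alternative.

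Names, transcript types and 1-based coordinates came from GENCODE M21 on GRCm38, matched by identifier without version for 42462 of 43346 Ensembl rows. Estimated counts were rounded and scaled by TMM (edgeR 4.0.16, R 4.3.3). Genes that reached 10 counts in either library were compared by an exact two-sided binomial test (scipy 1.17.1) with Benjamini-Hochberg adjustment over 15275 genes, called at an adjusted p under 0.05 and 2-fold or more. Ratios are replicate 2 over replicate 1 with 0.5 counts added. Intervals are 95% exact (Clopper-Pearson) and, like the limit of 3 counts, cover counting error alone, as reads carried no molecular identifiers that would make them independent molecules. The libraries were not duplicates, with a chi-square of 257 per degree of freedom over genes, and their biological coefficient of variation was 0.216 (edgeR, mean-only model). The binomial test was tested on simulated counts with counting error alone. That setting lacks the spread between these libraries, so it does not check the p-values against that spread.

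The members and gene lists were chosen with earlier results of these data known. The text names all members, their paralogs, overlapping genes, the 3 genes nearest in level to Ezh1 and Ezh2, and up to 5 genes of each list by level or ratio. Aebp2, Jarid2, Rybp, Yaf2, Kdm6a, Cdkn2b and the targets named as without counts were singled out after their values were seen. One list symbol, Ezhip, had no match. One gene of complex 1 is not reported here and was left out of its list and of its family's shares. Alternatives were DESeq2 1.42.0 size factors, total counts, other count minimums, fold thresholds and pseudocounts, posterior means, FPKM, protein-coding transcripts alone and each library left out.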

Additional observations from a re-analysis of the deposited data

How the results depend on the processing

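With 1 condition and 2 libraries, the error of every value rests on 2 measurements, and short noncoding transcripts weigh on TPM. Of the 10 members, 0 were called between libraries under every scaling, count minimum and posterior mean tried and at 1.5-fold, and 9 without a fold threshold. The count over the 4 lists was 1 of 38 tested. It was 0 at a minimum of 100 counts (Scml4 is then not tested), 2 at 1.5-fold and 33 without a fold threshold. Over all genes tested the share called was 6.49%, with 3.41% at a minimum of 100 counts, 16.1% at 1.5-fold and 62.0% without a fold threshold. On log2 (TPM + 1) the ratio of replicate 2 over replicate 1 turned to -0.18 for Ezh2, -0.049 for Ezh1, -0.32 for Rnf2, -0.21 for Bmi1 and -0.029 for Cbx8. Scaled to protein-coding counts, which moved the median of all genes to -0.11, Ezh2 (0.02, exact adjusted p = 0.58) and Rnf2 (0.05, exact adjusted p = 0.26) no longer passed and Cbx2 did (-0.13, exact adjusted p = 3.7e-04). Counts not divided by length gave a mean Ezh2 to Ezh1 ratio of 1.22, a Ring1 to Rnf2 ratio of 0.561, 40.8% for Bmi1 and 4.93% for Cbx7. FPKM was higher than TPM for all 10 members and left the ratios and shares within their SD. Protein-coding transcripts alone gave 0.858 for Ring1 to Rnf2 and 36.1% for Bmi1, and posterior mean TPM gave 14.7% for Cbx7, whose cause was not tested. At 5 TPM, 2 members reached the threshold in place of 9. The members' median coding share was 80.7% of TPM and 93.9% of estimated counts, an alternative chosen after seeing the data. With 1 library left out, the Ezh2 to Ezh1 ratio was 1.82 to 2.02, the Ring1 to Rnf2 ratio 0.603 to 0.649, the Bmi1 share 36.6% to 37.7%, the Cbx7 share 6.90% to 7.52% and the coding share 77.1% to 84.2%, with 9 members at 1 TPM each time. No comparison between libraries can be made with 1 library left out. No paired analysis was possible because the series holds 1 group.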
